A study of Mus musculus with 46 samples.

Results

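The core circadian clock loop was followed through 9 genes chosen by name: the activators Arntl, Clock and Npas2, and the repressors Per1, Per2, Per3, Cry1, Cry2 and Ciart. All 9 had a row in each of the 4 tables and therefore a value in all 46 libraries, out of 55774 rows in the liver and inducible tables and 56775 in the table of conventional hairpins. The study perturbs Falcor, a long noncoding RNA listed as 9030622O22Rik, in mouse liver and in AML12, a mouse hepatocyte line. The livers were Falcor KO and Ctrl on the diet labelled NCD (4 KO, 4 Ctrl) and Falcor KO and Ctrl on the diet labelled HFD (6 KO, 5 Ctrl). The AML12 lines with inducible hairpins carried shLinc (the line whose Falcor value falls with Dox, doxycycline) or shCtrl, each without Dox, with Dox, or in the state labelled Restored (DoxMinus), with 3 libraries a group. The AML12 lines with conventional hairpins carried shFalcor, shZC3H11A or shCtrl, again with 3 libraries a group. The sources used here give neither the knockout allele nor any promoter or Cre that drives it, and no mouse age or sex, number of clones or time of day of collection.

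In mammalian cells BMAL1, the product of Arntl, pairs with CLOCK or its relative NPAS2 and activates genes that carry E-box sequences. Among the genes activated are the Per and Cry genes, whose products enter the nucleus and inhibit the same activators, and Ciart (also called Chrono), whose product also represses BMAL1 and CLOCK. A second loop, with the nuclear receptors REV-ERB and ROR, acts on Arntl, and the PAR bZIP factors DBP, TEF and HLF act through D-box sequences. In mouse liver these transcripts oscillate over the day, with Arntl peaking when most E-box targets are low.

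Promoter windows from RefSeq (build GRCm38.p6, 250 bases before to 50 after a transcript start) were at hand for 8 of the 9 genes, Per2 being the exception. The stretches below are shown because Ciart and Per1 are the members whose level differed most between KO and Ctrl livers, while Cry1 and Per3 are shown as members whose windows hold the related CACGTT and the D-box. Capitals mark the E-box CACGTG, the related CACGTT (which reads as AACGTG on the other strand) or the D-box TTATGTAA, and all are printed 5′ to 3′ along the gene's strand. The Ciart stretch lies at chr3:95882259-95882358 (minus strand) and holds 3 E-boxes.
Ciart: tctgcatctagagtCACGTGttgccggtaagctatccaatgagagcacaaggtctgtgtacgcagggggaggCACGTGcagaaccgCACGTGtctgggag
The Per1 stretch lies at chr11:69098759-69098828 (plus strand), upstream of this transcript start but inside the longer GENCODE gene model, and holds 1 E-box.
Per1: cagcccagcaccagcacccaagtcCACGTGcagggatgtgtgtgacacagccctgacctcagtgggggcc
The Cry1 stretch lies at chr10:85185085-85185154 (minus strand) and holds CACGTG once and CACGTT once on the opposite strand.
Cry1: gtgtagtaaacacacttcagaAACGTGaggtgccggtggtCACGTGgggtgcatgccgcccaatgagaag
The Per3 stretch lies at chr4:151044806-151044880 (minus strand) and holds 2 D-boxes.
Per3: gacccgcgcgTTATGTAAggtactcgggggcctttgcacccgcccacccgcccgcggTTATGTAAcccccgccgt

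Both strands were searched for the E-box CACGTG, for its variant CACGTT, for the D-box in the forms TTATGTAA and also TTACGTAA, for the cAMP response element TGACGTCA and for the hexamer AGGTCA, the core that REV-ERB and ROR sites share with other nuclear receptor sites. Of all 32851 promoter windows, 7.15% held CACGTG, 4.68% held CACGTT, 1.06% held a D-box, 1.79% held TGACGTCA and 16.3% held AGGTCA. At least 3 copies of CACGTG, as in Ciart, were present in 29 windows (0.0883%), and at least 2 D-boxes, as in Per3, in 8 windows (0.0244%). Cry2 held CACGTT once, and AGGTCA was found in 1 window each of Arntl, Clock and Per1. The E-box and its variant share 5 letters but did not overlap in these windows, and TGACGTCA was found in none of the members' windows. A match is a description of the letters only.

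The table of conventional hairpins holds counts, with 4474760 to 8837581 per library. The other 3 tables hold rounded whole numbers that behave like a length-scaled score, with column totals of 833910 to 872375 for NCD, 918867 to 975752 for HFD and 859568 to 883564 for the inducible lines, so their depth is unknown and low values carry rounding error. Falcor was listed at 0 in all 4 NCD KO livers, against 70 to 135 in Ctrl livers, and at 0 in all 6 HFD KO livers, against 17 to 27 in Ctrl livers. Within the HFD values, 3 rows with identical values hold 22.4 to 78.2% of each column, and the highest share belongs to KO replicate 6, whose scale factor was 0.438. The sources do not say whether libraries of a group came from separate animals or cultures, so the p-values speak only of spread among libraries, and that spread may be technical.

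In NCD livers the E-box targets Per1 and Ciart were higher in Falcor KO than in Ctrl, while Clock hardly differed. Of the 6 members with a mean scaled value of at least 3, 2 were called (limma, Benjamini-Hochberg adjusted p below 0.05 over all 9426 genes tested), both higher; of all genes tested 6.05% were called, 4.2% higher and 1.85% lower. Per1 was listed at 9, 10, 15 and 15 in KO livers, against 3, 5, 2 and 3 in Ctrl livers. Every KO value lies above every Ctrl value. After scaling, Per1 averaged 11.3 ± 2.28 in KO livers and 3.46 ± 1.25 in Ctrl livers (SD, n = 4 each), a log2 fold change of 1.49 ± 0.21 (SE, limma adjusted p = 0.031). Ciart was listed at 10, 9, 8 and 9 in KO livers, against 3, 4, 2 and 2 in Ctrl livers. Here too the groups do not overlap. Its scaled means were 8.46 ± 1.27 in KO livers and 2.94 ± 0.99 in Ctrl livers (SD, n = 4 each), a log2 fold change of 1.29 ± 0.19 (SE, limma adjusted p = 0.031). Both calls rest on narrow margins, since they were lost when KO replicate 1, 2, 3 or 4, Ctrl replicate 3 or the Ctrl column Ctrl-2 was left out. Without 1 library the log2 fold change lay between 1.32 and 1.66 for Per1 and between 1.17 and 1.43 for Ciart, with limma adjusted p of up to 0.0932 for each; in those 6 cases 0 members were called.

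The other repressors were higher in KO livers in their means without passing the test, except Cry1. Cry2, a cryptochrome repressor, was listed at 18, 17, 20 and 20 in KO livers, against 13, 12, 11 and 14 in Ctrl livers. The groups do not overlap, and the log2 fold change of 0.37 ± 0.09 (SE) had a limma adjusted p of 0.0505. Its side of the threshold depended on the processing. With no rescaling between libraries Cry2 was called (0.55, limma adjusted p = 0.0187). It was also called with 3 in place of 1 added before taking logs (0.33, limma adjusted p = 0.0495). Per3, a period paralog that is dispensable for the core rhythm in mice, was listed at 10, 9, 4 and 13 in KO livers, against 3, 6, 2 and 3 in Ctrl livers. A single KO liver falls within the Ctrl range, and the log2 fold change was 0.98 ± 0.37 (SE, limma adjusted p = 0.12). Per2, the period protein needed for the rhythm in mice, was listed at 10, 9, 9 and 11 in KO livers, against 6, 13, 9 and 4 in Ctrl livers. The KO values sit within the wide Ctrl range, and the 95% interval of the log2 fold change ran from −0.46 to 0.83.

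Among the activators, Arntl was listed at 1, 2, 2 and 1 in KO livers, against 4, 2, 3 and 5 in NCD Ctrl livers. The ranges touch at 2 in the deposited values and separate only after scaling, where the means were 1.4 ± 0.53 in KO livers and 3.76 ± 1.42 in Ctrl livers (SD, n = 4 each). Rounding alone allows a ratio of means (KO over Ctrl) anywhere from 0.217 to 0.579. Arntl fell under the filter on low values. Its exact permutation p (two-sided) was 0.0286 on scaled values, the smallest that 4 against 4 libraries can give, and 0.0857 on deposited values; without the filter, limma gave an adjusted p of 0.0796. Clock was listed at 9, 9, 11 and 9 in KO livers, against 8, 8, 8 and 10 in Ctrl livers, with a log2 fold change of −0.03 ± 0.09 (SE, limma adjusted p = 0.861) and a 95% interval from −0.24 to 0.19. Npas2 was listed at 0 in all KO livers and in 3 of 4 Ctrl livers, with 1 in the fourth. Cry1 was listed at 2 or 3 in every NCD liver, and its exact permutation p was 0.886.

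**Figure D1:**
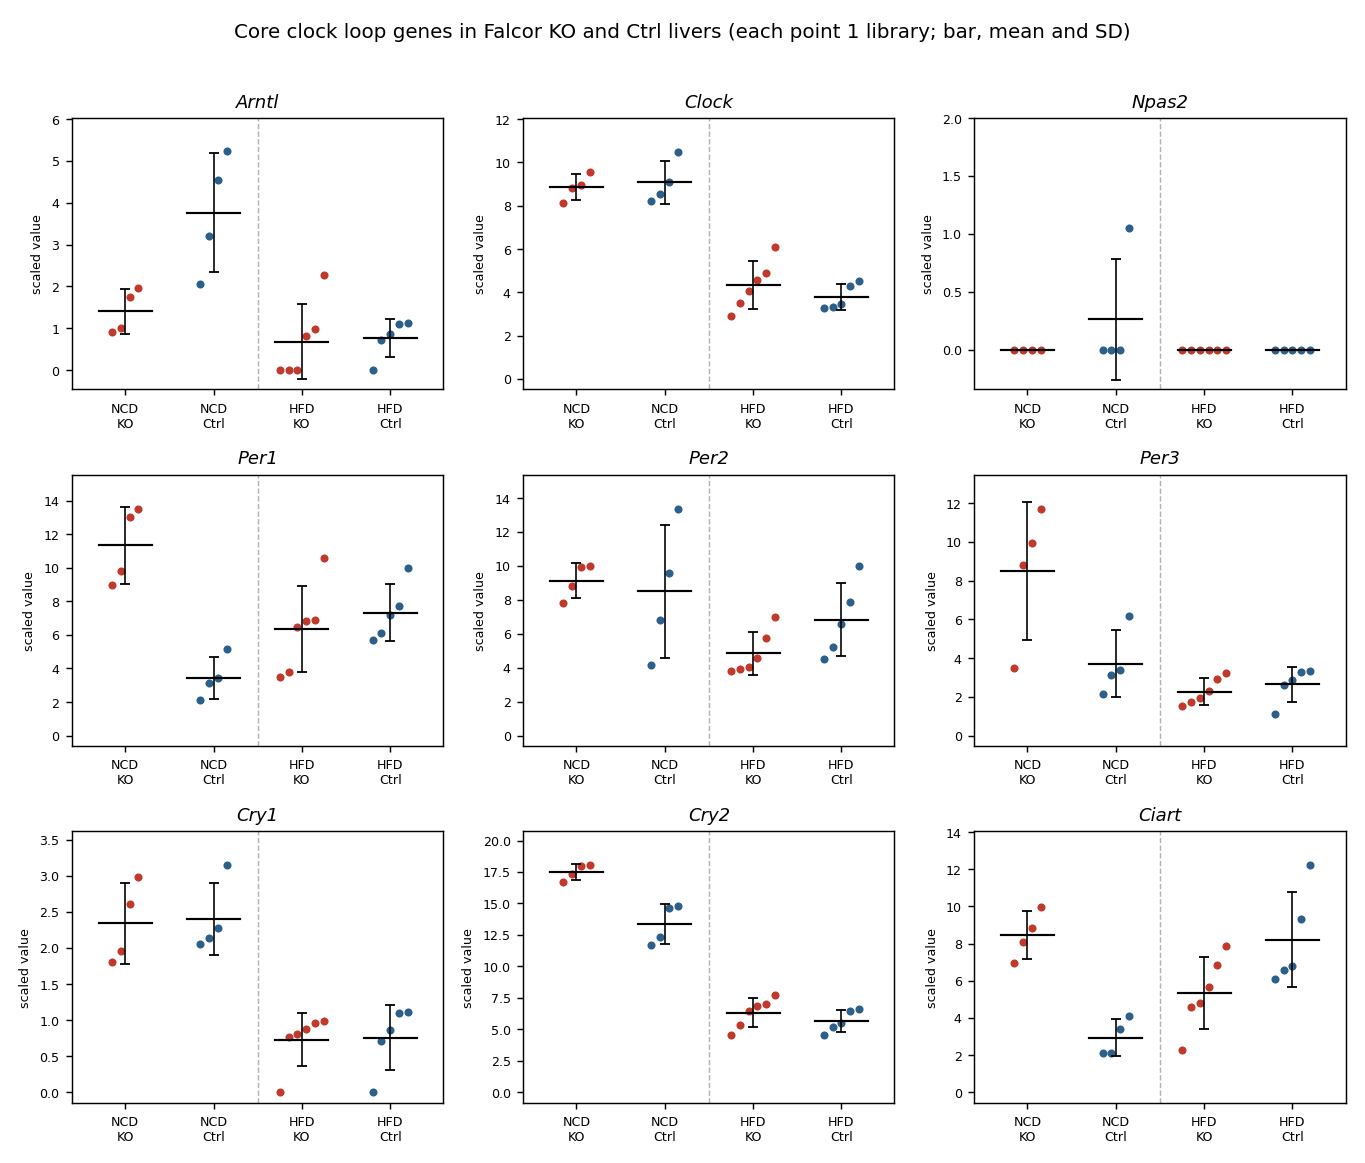
Scaled values of the 9 clock loop genes (y axis) in Falcor KO and Ctrl livers on NCD and HFD (x axis); each point is 1 library and bars give mean and SD. NCD and HFD values come from tables scaled separately. Per1 and Ciart separate KO from Ctrl on NCD (means of 11.3 and 3.46 for Per1), while on HFD every member's groups overlap.

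Of the liver cell type markers tested between NCD KO and Ctrl livers, 1 of 8 hepatocyte markers was called higher. None was called among 5 Kupffer cell, 4 endothelial, 4 stellate or fibroblast, 5 blood and 1 cholangiocyte markers, and no lymphocyte or adipocyte marker passed the filter on low values. Summed hepatocyte markers ranged from 41459 to 59528 in KO livers and from 33728 to 44243 in Ctrl livers, and summed Kupffer cell markers from 57.7 to 80.8 in KO livers and from 73.0 to 134.3 in Ctrl livers. Alb, listed at 29118 to 43052 in KO livers and at 19067 to 27100 in Ctrl livers, gave most of the hepatocyte sum. Summed stellate and fibroblast markers ranged from 71.8 to 95.2 in NCD KO livers and from 61.8 to 75.1 in NCD Ctrl livers. Their part in the clock gene values was not tested. In bulk tissue fewer cells of a type and less RNA per cell cannot be told apart.

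In HFD livers none of the 5 members tested was called, where 0.0507% of all 5913 genes tested were called (3 genes, 0.0338% higher and 0.0169% lower). Before adjustment 1 of the 5, Ciart, had a limma p below 0.05, at 0.0447. Ciart was listed at 7, 9, 3, 5, 7 and 2 in KO livers, against 7, 6, 13, 11 and 6 in Ctrl livers. The groups overlap, and the log2 fold change was −0.56 ± 0.25 (SE, limma adjusted p = 0.378). Per2 was listed at 4, 8, 5, 6, 5 and 2 in KO livers, against 6, 4, 11, 9 and 6 in Ctrl livers, a log2 fold change of −0.41 (limma adjusted p = 0.416). Per1 was listed at 7, 4, 5, 11, 8 and 3 in KO livers, against 7, 5, 10, 9 and 7 in Ctrl livers. Its 95% interval ran from −0.75 to 0.28, below the NCD estimate of 1.49. Cry2 was listed at 7, 8, 7, 8, 8 and 2 in KO livers, against 6, 4, 9, 5 and 6 in Ctrl livers, and Clock at 5, 4, 8, 3, 5 and 2 in KO livers, against 4, 4, 6, 3 and 3 in Ctrl livers. The lowest deposited value of each of these 5 members among the KO livers belonged to replicate 6, the library with the low scale factor; after scaling that held only for Cry2. Leaving it out called no member.

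The remaining members are too low on HFD for a fit across genes. Arntl was listed at 1, 0, 3, 0, 1 and 0 in KO livers, against 1, 1, 1, 1 and 0 in Ctrl livers, with an exact permutation p of 0.628. Per3 was listed at 1 to 4 in both groups (exact permutation p = 0.537) and Cry1 at 0 or 1 (exact permutation p = 0.935). Npas2 was listed at 0 in all 11 livers. No difference was detected in these genes. Without the filter on low values Per3 had a log2 fold change of −0.14 ± 0.20 (SE, limma).

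The KO effect differed between diets for Per1 and Ciart. The effect on HFD minus that on NCD was −1.72 ± 0.32 for Per1 (SE, on the log2 scale, adjusted p = 0.00939 from the difference of the limma estimates) and −1.85 ± 0.31 for Ciart (SE, adjusted p = 0.00754 from the same difference). These were 2 of 5 members tested, both lower, where 7.88% of all 5863 genes tested were called, 2.87% higher and 5.01% lower. Both were called whichever of the 19 livers was left out. For Per2 the difference was −0.59 (95% interval −1.32 to 0.13), for Cry2 −0.24 (−0.57 to 0.09) and for Clock 0.16 (−0.20 to 0.53), none of them past the threshold. On HFD, summed stellate and fibroblast markers ranged from 18.3 to 28.9 in KO livers and from 30.7 to 49.6 in Ctrl livers. Dcn, listed at 6 to 27 in KO livers and at 20 to 41 in Ctrl livers, gave most of that sum. In deposited values the groups overlapped for each of the 5 markers, among them Reln (2 to 8 in KO livers, 5 to 10 in Ctrl livers). Summed adipocyte markers ranged from 0 to 0.874 in KO livers and from 1.1 to 7.95 in Ctrl livers. That adipocyte sum is Cfd alone, since Adipoq, Plin1 and Lep were listed at 0 in every HFD liver. No adipocyte marker passed the filter on low values on HFD. None of the HFD markers tested was called, and the part of the markers in the clock gene values was not tested. Both tables were normalized separately, so diet and table cannot be told apart in these differences.

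**Figure D2:**
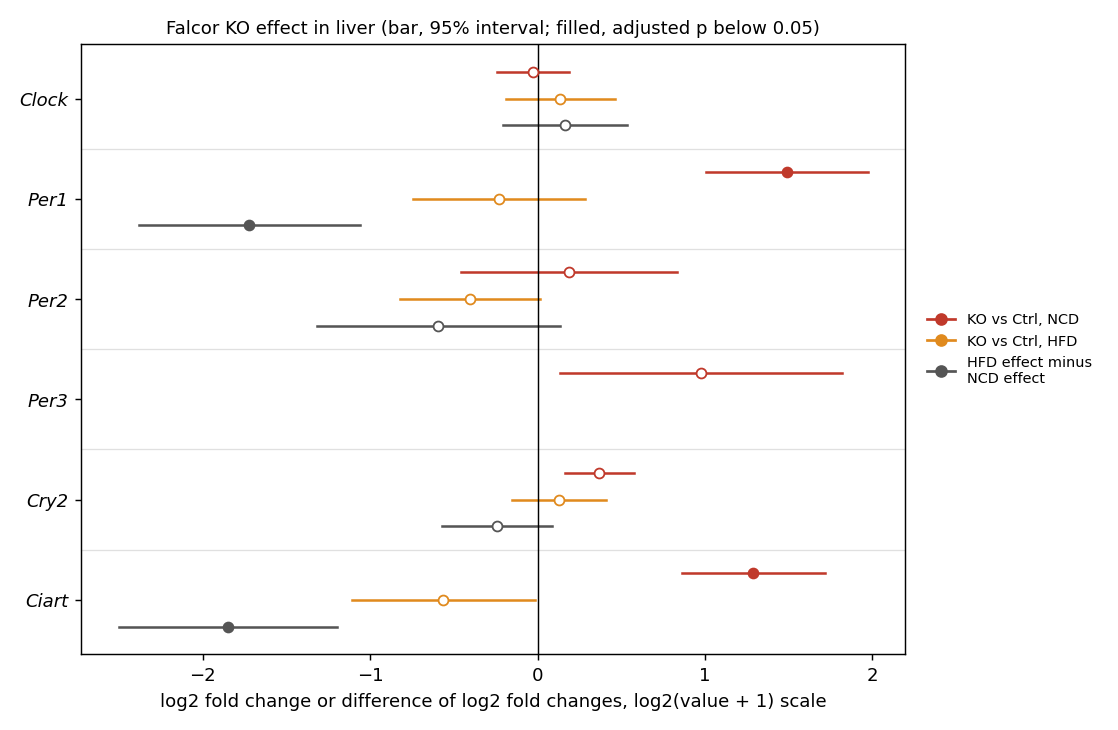
Log2 fold change of KO over Ctrl on NCD and on HFD, and the difference of both effects (x axis, log2(value + 1) scale), for the 6 members with a fitted value (y axis). Bars are 95% intervals and filled points have an adjusted p below 0.05. Per1 and Ciart lie at 1.49 and 1.29 on NCD, at −0.23 and −0.56 on HFD.

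Arntl was set against each other member across livers after group means were removed, in 15 relations that could be computed. Over the 8 NCD livers Arntl ran opposite to Per2 (Pearson r = −0.88, exact permutation p = 0.0139; Spearman rho = −0.81, exact permutation p = 0.0451). Without the 2 livers farthest from the Arntl median the Pearson r was −0.86. With Clock it ran in the same direction over the 8 NCD livers (r = 0.80, exact permutation p = 0.0434; rho = 0.71, exact permutation p = 0.0903). Over the 11 HFD livers the Clock values were r = 0.72 (permutation p = 0.0292) and rho = 0.75 (permutation p = 0.0199), and r was 0.54 without the 2 livers farthest from the Arntl median. No relation passed adjustment over the 15, the lowest adjusted permutation p being 0.208 for Pearson and 0.298 for Spearman. Over the 11 HFD livers the Arntl and Per2 pair gave r = −0.45 (permutation p = 0.166).

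Genes around the core loop were described from lists chosen by name. Of the stabilizing loop and output factors, 5 of 9 tested were called higher in NCD KO livers and 0 lower, where 4.2% of all genes tested were called higher and 1.85% lower. The lists below are to be read against the same shares. Unlike those of Per1 and Ciart, the calls in these lists were not repeated with a library left out. Tef, a D-box activator, averaged 53.4 in KO livers and 33.8 in Ctrl livers (log2 fold change 0.65 ± 0.11 SE, limma adjusted p = 0.032), and Dbp, the classical D-box activator driven by E-boxes, averaged 69.5 in KO livers and 34.2 in Ctrl livers (1.07 ± 0.23 SE, limma adjusted p = 0.0419). Nr1d2, which encodes REV-ERB beta, had a log2 fold change of 0.84 (limma adjusted p = 0.0388) and Hlf one of 0.45 (limma adjusted p = 0.0345). The median log2 fold change of the 9 tested was 0.56, against 0.03 over all genes tested. Of 12 rhythmic liver outputs tested, 3 were called higher in NCD KO livers: Gys2 (glycogen synthase, 0.84), Upp2 (a uridine phosphorylase, 1.46) and Nampt (rate-limiting for NAD salvage, 0.81). Leap2, which encodes a ghrelin receptor antagonist, was called lower (−0.46). Among 14 proteins that modify clock proteins only Csnk2b, a casein kinase 2 subunit, was called (0.31, limma adjusted p = 0.0446). The list of acute inputs to Per genes also holds targets of such inputs, among them glucocorticoid targets. None of its 11 genes was called. On HFD none of the genes tested in these lists (8, 12, 9 and 8 in the same order) was called. Where 5.01% of all genes tested were called lower and 2.87% higher in the effect on HFD minus that on NCD, 3 of 8 stabilizing loop and output factors were called lower and 0 higher, and of 12 rhythmic outputs 5 were called lower and 1 higher. None of the modifiers or acute inputs was called. The difference was lower for Dbp (−1.49), Tef (−0.83), Nr1d2 (−0.89), and, among the outputs, Upp2 (−2.06), Nampt (−1.28) and Gys2 (−1.04), and higher for the vasopressin receptor gene Avpr1a (1.34).

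In AML12 with inducible hairpins, Falcor was listed at 2, 2 and 3 with Dox in shLinc, against 5, 4 and 5 in shCtrl. Without Dox it was listed at 12, 9 and 10 in shLinc, against 4, 6 and 5 in shCtrl, so the lines differed in Falcor before induction, and in the restored state at 11, 9 and 11 in shLinc, against 5, 4 and 5 in shCtrl. Calls among the members are to be read against the share of all 9840 genes tested that was called, which was large throughout. Per3 was listed at 0 or 1, Ciart at 0 to 2 and Npas2 at 0 in all 18 libraries, which leaves 6 members tested.

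With Dox, 5 of the 6 members were called between shLinc and shCtrl, 4 lower and 1 higher, where 52.5% of all genes tested were called, 25.4% higher and 27% lower. Clock was listed at 3, 3 and 3 in shLinc, against 6, 7 and 6 in shCtrl, the widest difference of the 6 on the log2 scale, with a log2 fold change of −0.88 ± 0.17 (SE, limma adjusted p = 4.93e-04). Arntl was listed at 9 in each shLinc library, against 12 in each shCtrl library (−0.38 ± 0.08 SE, limma adjusted p = 0.00129). Cry1, the stronger repressor of the cryptochromes, was listed at 16 in each shLinc library, against 18 in each shCtrl library (−0.16 ± 0.05 SE, limma adjusted p = 0.00909). Per2 was listed at 3 in each shLinc library, against 4 in each shCtrl library; it was called (−0.32, limma adjusted p = 0.00589), but rounding alone allows a ratio of means (shLinc over shCtrl) of up to 1.00. Per1 was listed at 28, 27 and 28 in shLinc, against 22, 24 and 24 in shCtrl (0.24 ± 0.05 SE, limma adjusted p = 9.67e-04). Cry2, at 3, 4 and 4 in shLinc and 5, 4 and 4 in shCtrl, was not called (−0.19, limma adjusted p = 0.15).

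Before Dox the order was the other way round for Arntl and Per2. Arntl was listed at 19, 20 and 20 in shLinc, against 8, 12 and 12 in shCtrl (log2 fold change 0.67 ± 0.08 SE, limma adjusted p = 2.82e-06). Per2 was listed at 10 in each shLinc library, against 3, 4 and 4 in shCtrl (1.08 ± 0.09 SE, limma adjusted p = 1.63e-08). Cry2 was listed at 7, 8 and 9 in shLinc, against 4, 5 and 4 in shCtrl (0.59, limma adjusted p = 1.68e-04). Per1 was called as well (0.17), so 4 of 6 members were called, all higher. Of all genes tested, 65.3% were called, 30.1% higher and 35.2% lower. With only the 2 groups compared in the fit, Per1 was not called (limma adjusted p = 0.0682). Clock was listed at 3 in each shLinc library, against 1, 3 and 3 in shCtrl, and was not called (limma adjusted p = 0.323).

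In the restored state Arntl and Per2 were again higher in shLinc, and 4 of 6 members were called in all, 2 in each direction, where 57.9% of all genes tested were called, 25.7% higher and 32.3% lower. Arntl was listed at 18, 18 and 17 in shLinc, against 11, 11 and 12 in shCtrl (log2 fold change 0.45 ± 0.08 SE, limma adjusted p = 2.23e-04), and Per2 at 8, 7 and 8 in shLinc, against 5, 5 and 4 in shCtrl (0.48 ± 0.09 SE, limma adjusted p = 2.02e-04). Per1 and Cry1 were called lower by small amounts (−0.17 and −0.15), and with no rescaling between libraries neither was called, at −0.02 for Per1 and 0 for Cry1. Clock, at 3 in every library of both lines, was not called (−0.12, limma adjusted p = 0.575).

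**Figure D3:**
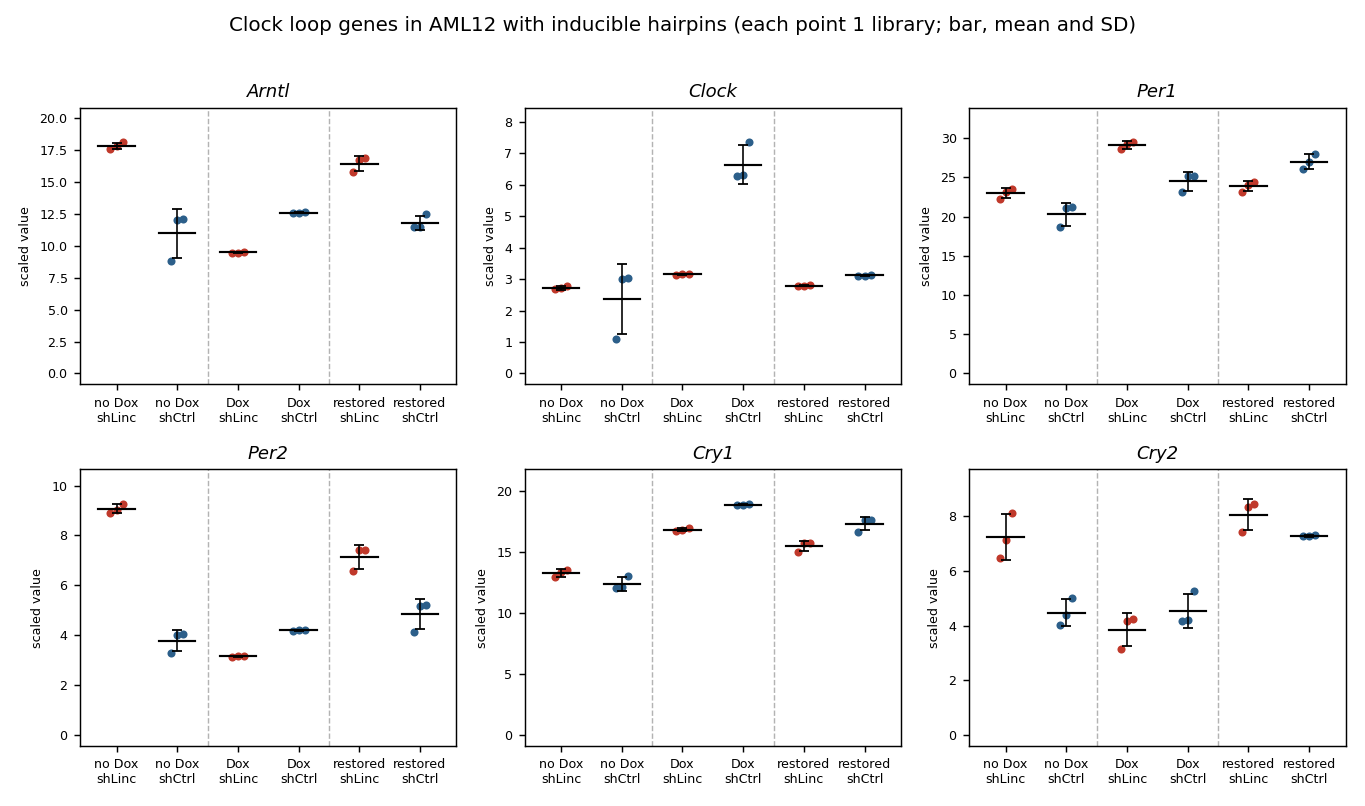
Scaled values (y axis) of the 6 members tested in the inducible AML12 lines, by Dox state and hairpin (x axis); each point is 1 library, bars give mean and SD, n = 3 a group. Arntl and Per2 in shLinc are lowest with Dox, and Clock is high only in shCtrl with Dox, at 6.64 ± 0.61.

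Within each line the response to Dox differed by gene. In shLinc, Dox against no Dox called 5 of 6 members, where 74.2% of all genes tested were called, 38.8% higher and 35.5% lower: Arntl (−0.85), Per2 (−1.28) and Cry2 (−0.77) fell, and Per1 (0.33) and Cry1 (0.32) rose. With no rescaling Per1 and Cry1 kept their sign but were not called (adjusted p = 0.108 and 0.083 by limma). In shCtrl, Dox against no Dox called 4 of 6, where 66.5% of all genes tested were called, 34% higher and 32.5% lower: Clock (1.24), Cry1 (0.57), Per1 (0.26) and Arntl (0.20) rose. The Arntl call in shCtrl had a limma adjusted p of 0.0487, and without shCtrl no Dox replicate 1, which was listed at 8, its log2 fold change was 0.06. Restored against Dox called 5 of 6 in shLinc, where 72.2% were called (34.1% higher, 38.1% lower), with Arntl (0.73), Per2 (0.97) and Cry2 (0.90) higher and Per1 (−0.28) and Cry1 (−0.11) lower, where with no rescaling neither was called and Cry1 changed sign (0.055). In shCtrl, restored against Dox called 4 of 6, where 73.8% were called (39.6% higher, 34.2% lower), with Clock (−0.89) and Cry1 (−0.12) lower and Cry2 (0.58) and Per1 (0.14) higher; without shCtrl Dox replicate 1 only Clock and Cry2 were called. Restored against no Dox called 2 of 6 in shLinc, where 52.4% were called, 28.6% higher and 23.8% lower (Per2 −0.31, Cry1 0.21). In shCtrl it called 4 of 6, where 49.9% were called, 27.2% higher and 22.8% lower (Per1 0.40, Per2 0.29, Cry1 0.45, Cry2 0.60). With only the 2 groups compared in the fit, Per2 in shCtrl was not called (limma adjusted p = 0.128).

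The hairpin by Dox difference sets the Dox response of shLinc against that of shCtrl. Against the state without Dox, 5 of 6 members were called lower, where 65% of all genes tested were called, 34.1% higher and 30.9% lower. The difference was −1.40 ± 0.13 for Per2 (SE, limma adjusted p = 5.21e-08), −1.08 ± 0.25 for Clock (SE, limma adjusted p = 0.00109) and −1.04 ± 0.12 for Arntl (SE, limma adjusted p = 9.01e-07). It was −0.78 for Cry2 and −0.25 for Cry1, and 0.07 for Per1, the member that was not called. Against the restored state, 4 of 6 were called, where 60.5% of all genes tested were called, 31.8% higher and 28.7% lower: Arntl (−0.82), Clock (−0.76) and Per2 (−0.80) lower, and Per1 (0.41) higher. In shCtrl Clock rose with Dox, while in shLinc it was listed at 3 in all 9 libraries. At that level, rounding alone allows a ratio of means (Dox over no Dox) from 0.829 to 1.62 in shLinc. The counts of members called were unchanged whichever of the 12 libraries was left out.

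Markers of some other cell types were absent from the inducible lines: all 5 endothelial, 5 lymphocyte and 4 adipocyte markers were listed at 0 in every library. Summed cholangiocyte markers were high in all groups, at 1018 to 1037 with Dox in shLinc, against 1241 to 1256 in shCtrl. The hepatocyte markers Cps1 and Cyp2e1 were at 0 as well, while Alb was listed at 30 to 91. Summed hepatocyte markers ranged from 445 to 456 with Dox in shLinc and from 732 to 757 in shCtrl. Without Dox the sums were 1165 to 1216 in shLinc and 519 to 566 in shCtrl. Ttr gave most of each sum, and the markers did not all move together. Without Dox, Alb was listed lower in shLinc (48 to 49) than in shCtrl (56 to 64). Hnf4a was listed higher in shLinc (77 to 79) than in shCtrl (43 to 58). Their part in the clock gene values was not tested.

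With conventional hairpins, Falcor fell to 0.842 ± 0.30 CPM in shFalcor, against 3.44 ± 1.29 CPM in shCtrl (SD, n = 3 each), and stood at 0.770 ± 0.28 CPM in shZC3H11A. Zc3h11a, the second target, whose symbol is shared by 2 overlapping gene models, was at 8.24 ± 5.15 CPM in shZC3H11A and at 37.5 ± 4.51 CPM in shFalcor, against 63.6 ± 4.36 CPM in shCtrl (SD, n = 3 each). By edgeR's quasi-likelihood test, 7 members passed the filter on low counts. Npas2 had 0 to 2 counts and Ciart 0 to 6 counts in each library.

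In shFalcor against shCtrl 4 of 7 members were called, 1 higher and 3 lower, where 51.5% of all 11871 genes tested were called, 25.5% higher and 26% lower. Per2 had 128, 107 and 229 counts in shFalcor, against 455, 253 and 302 in shCtrl, or, in CPM (counts scaled to library size), 22.8 ± 2.19 CPM in shFalcor and 49.2 ± 3.62 CPM in shCtrl (SD, n = 3 each). No library of either group reached the other, and the log2 fold change was −1.10 ± 0.12 (SE, edgeR adjusted p = 4.62e-07). Clock averaged 26.9 ± 3.10 CPM in shFalcor and 42.0 ± 7.51 CPM in shCtrl (SD, n = 3 each), a log2 fold change of −0.65 ± 0.14 (SE, edgeR adjusted p = 7.09e-04). Cry1, at 42, 25 and 59 counts in shFalcor, against 89, 58 and 81 in shCtrl, had a log2 fold change of −0.86 ± 0.22 (SE, edgeR adjusted p = 0.00352). Arntl was higher, with 40.7, 37.6 and 40.5 CPM in shFalcor, against 23.6, 17.6 and 22.3 CPM in shCtrl (0.90 ± 0.13 SE, edgeR adjusted p = 1.41e-05). Per1 averaged 238 ± 18.8 CPM in shFalcor and 248 ± 33.5 CPM in shCtrl (SD, n = 3 each), and the 95% interval of its log2 fold change ran from −0.24 to 0.12. Cry2 (0.07) and Per3 (0.51, edgeR adjusted p = 0.118) were not called. All 4 calls were kept whichever library was left out.

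In shZC3H11A against shCtrl, which shares its control libraries with the preceding comparison, 3 of 7 members were called, 2 higher and 1 lower, where 48.5% of all genes tested were called, 24.2% higher and 24.3% lower. Arntl had 40.5, 49.7 and 49.8 CPM in shZC3H11A, against 23.6, 17.6 and 22.3 CPM in shCtrl (log2 fold change 1.12 ± 0.13 SE, edgeR adjusted p = 1.07e-06). Per3 averaged 15.3 ± 1.49 CPM in shZC3H11A and 9.19 ± 3.91 CPM in shCtrl (SD, n = 3 each, edgeR adjusted p = 0.0387), where shCtrl replicate 2 alone was at 4.67 CPM. Cry1 averaged 7.66 ± 1.28 CPM in shZC3H11A and 11.3 ± 1.68 CPM in shCtrl (SD, n = 3 each, edgeR adjusted p = 0.0462). The last pair of calls was fragile: with each of the 6 libraries left out in turn, Per3 lost its call in 4 cases and Cry1 in 5. Without shCtrl replicate 2 or without shZC3H11A replicate 2 only Arntl was called. Without shCtrl replicate 2 the log2 fold change of Per3 was 0.41 in place of 0.70. Cry1 was also not called by DESeq2 (adjusted p = 0.135) or by edgeR without the filter on low counts (adjusted p = 0.0963). Per2 averaged 49.8 ± 5.66 CPM in shZC3H11A and 49.2 ± 3.62 CPM in shCtrl (SD, n = 3 each) and was not called (edgeR adjusted p = 0.94).

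Set directly against each other, shFalcor and shZC3H11A differed in 2 of 7 members, both lower, where 56.9% of all genes tested were called, 28.4% higher and 28.6% lower. Per2 was at 20.8, 22.4 and 25.2 CPM in shFalcor, against 52.6, 53.4 and 43.2 CPM in shZC3H11A (log2 fold change −1.12 ± 0.12 SE, edgeR adjusted p = 3.19e-07). Clock was at 23.4, 29.5 and 27.7 CPM in shFalcor, against 41.6, 44.4 and 36.5 CPM in shZC3H11A (−0.60 ± 0.14 SE, edgeR adjusted p = 0.00127). For Arntl the difference was −0.23 (edgeR adjusted p = 0.125).

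**Figure D4:**
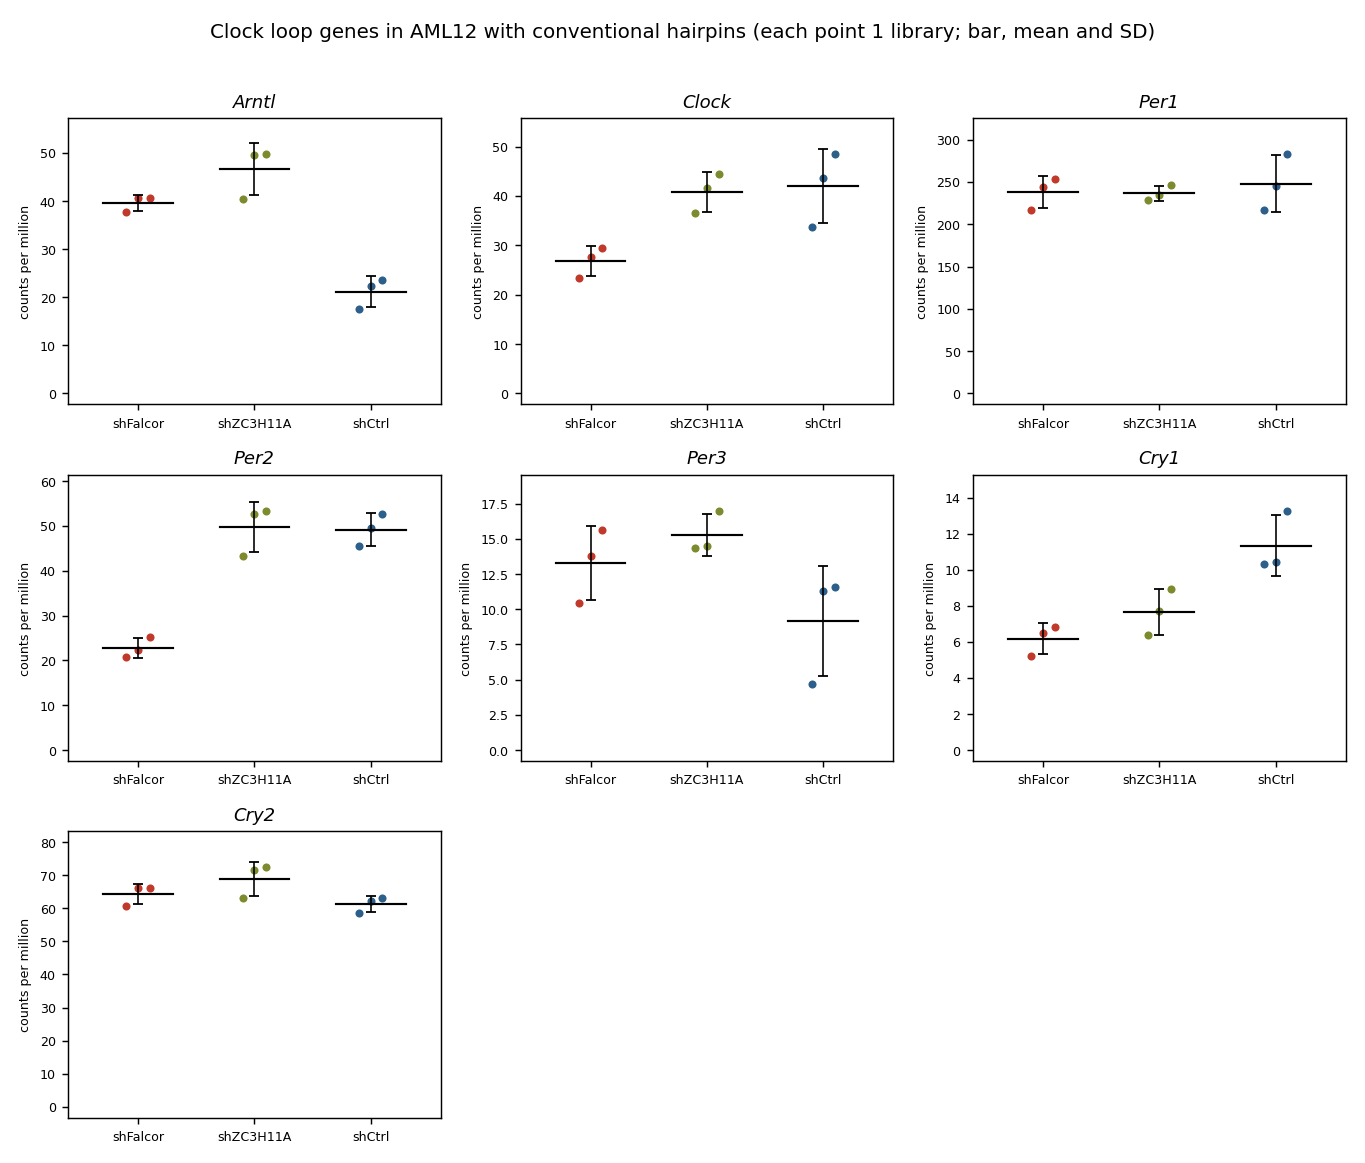
CPM (y axis) of the 7 members tested in AML12 with the conventional hairpins shFalcor, shZC3H11A and shCtrl (x axis); each point is 1 library, bars give mean and SD, n = 3 a group. Per2 is at 22.8 CPM in shFalcor, below 49.8 CPM in shZC3H11A and 49.2 CPM in shCtrl, while Arntl is above shCtrl with both hairpins.

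Genes of the other lists are to be read against the 51.5% of all genes tested that were called in shFalcor against shCtrl (25.5% higher, 26% lower). Of 11 genes on the list of acute inputs to Per genes, 7 were called lower in shFalcor and 0 higher. Those called lower include targets of such inputs, the glucocorticoid targets Sgk1 (130 CPM in shFalcor, 802 CPM in shCtrl, log2 fold change −2.62), Tsc22d3 (−1.51), Fkbp5 (−1.27) and Klf9 (−1.14). The median log2 fold change of the 11 genes was −0.40, against −0.0049 over all genes tested. Of 18 modifiers of clock proteins 7 were called higher and 3 lower, 10 calls in all and so near the share over all genes. Among them were the period kinase genes Csnk1d (0.93) and Csnk1e (0.55) on the higher side and Gsk3b (−0.79) on the lower. Of 8 stabilizing loop and output factors tested 2 were called, a smaller share than over all genes: Tef was higher (1.02) and Bhlhe40, an E-box competitor, lower (−0.41). Summed hepatocyte markers were at 71.1 to 80.8 CPM in shFalcor, against 303 to 347 CPM in shCtrl. The summed Kupffer cell markers were at 47.9 to 50.6 CPM in shFalcor, against 3.44 to 5.21 CPM in shCtrl; Cd68, with 240 to 430 counts in shFalcor, made up nearly all of it, and Clec4f and Marco were at 0 in all libraries. The part of these markers in the clock gene values was not tested.

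The inducible and the conventional knockdown of Falcor do not share libraries, and their values can be set side by side. Clock was lower in shLinc with Dox (−0.88) and in shFalcor (−0.65), each against its own shCtrl, as were Per2 (−0.32 and −1.10) and Cry1 (−0.16 and −0.86). Within shLinc, however, Clock was listed at 3 in every library, while in shCtrl it rose with Dox (1.24). Rounding alone allows a ratio of means (Dox over no Dox) from 0.829 to 1.62 for Clock in shLinc. For Per2 with Dox, rounding alone allows a ratio of means (shLinc over shCtrl) of up to 1.00. In the restored state Cry1 was about as low in shLinc (−0.15), though at 0 with no rescaling, and the hairpin by Dox difference against restored was −0.0052 for Cry1 (limma adjusted p = 0.949). Arntl was lower in shLinc with Dox (−0.38) and higher in shFalcor (0.90). Per1 was higher in shLinc with Dox (0.24) and was not called in shFalcor (−0.06). Adding 1 before taking logs shrinks the fold changes of low genes in the inducible lines, so sizes are not compared.

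**Figure D5:**
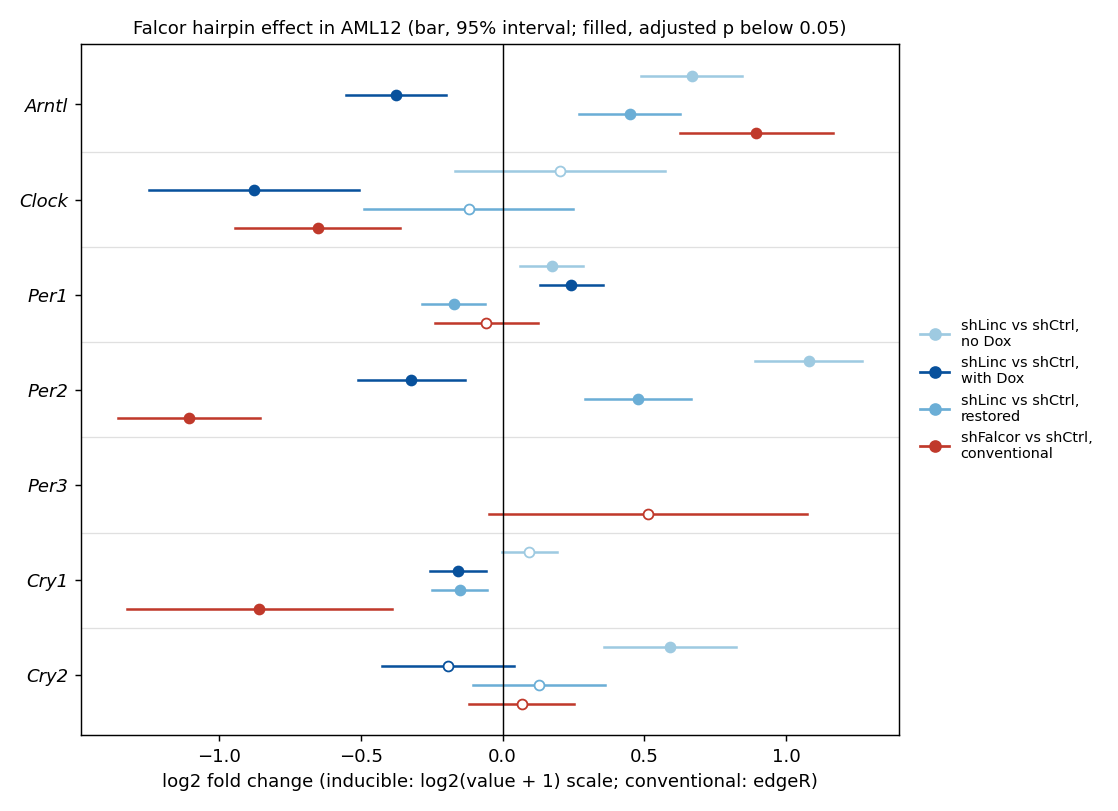
Log2 fold change of the Falcor hairpin over shCtrl (x axis) for 7 members (y axis) in the 3 Dox states of the inducible lines and with the conventional hairpin; bars are 95% intervals and filled points have an adjusted p below 0.05. Arntl is negative with Dox (−0.38) and positive in the other comparisons, and Per3 has a fitted value only with the conventional hairpin.

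The genes whose pattern was most like that of Arntl over the 11 HFD livers were Anapc13 (Pearson r = 0.86 over log2 scaled values), Cmtm8 (0.85), Nap1l1 (0.84), Stbd1 (0.84) and Emc4 (0.83), and the least like were Cyp2c70 (−0.75), Zbtb20 (−0.74), Igf1 (−0.72), Zfp706 (−0.72) and Ssr3 (−0.72). Arntl takes few distinct values there, which limits this measure. Over the 8 NCD livers r was 0.72 for Anapc13 but −0.27 for Cmtm8, −0.76 for Nap1l1, −0.67 for Stbd1 and −0.78 for Emc4. Of the least alike, Ssr3 (−0.83) and Zbtb20 (−0.50) stayed negative there. Cyp2c70 (−0.15), Zfp706 (−0.07) and Igf1 (0.03) were near 0. Over the 18 inducible libraries, a set chosen after the values were seen, genes among the most alike were Myo6 (r = 0.97), Prkar2b (0.97), Cpt1a (0.96) and Vezf1 (0.96). These libraries share their hairpins and Dox states, and no p is given.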

How the data were processed

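RNA sequencing of AML12 cells and mouse liver was used as deposited. Per the labels' protocols the kit removes ribosomal RNA and keeps strand. The tools named in the submitters' processing notes are kallisto and DESeq2, the build is mm10, and no versions are named. For the conventional hairpins the deposited values are counts per gene. The values the authors deposited for liver and for the inducible lines are handled as a score: rounded whole numbers with near-constant totals and a spread between replicates below counting noise. The score tables were tested with limma 3.58.1 (trend, robust) on log2(value + 1) after scaling by the trimmed mean of M-values, for genes with a mean scaled value of at least 3. Counts were tested with edgeR 4.0.16 (quasi-likelihood, filterByExpr); DESeq2 1.42.0 was an alternative. P-values were adjusted by Benjamini-Hochberg over all genes of a comparison, with a threshold of 0.05. All groups of a table shared 1 fit. The fits were tested on simulated data. The effect of diet on the KO effect is the difference of both limma estimates with Welch-Satterthwaite degrees of freedom. Members under the filter were tested in liver by exact permutation. Of the liver control columns, 4 matched their group but no single library and are named by column. The 9 members, the lists and the tests were chosen with earlier results of these data known. Named beyond the members were at most 4 genes of a list per comparison, by smallest p, and the 5 genes most and least like Arntl (mean scaled value of at least 10). In the inducible lines 1 gene of that kind is not reported here. Intervals are 95%. Same-numbered libraries do not share a stated animal, batch or day, and no comparison with 3 pairs had every correlation above 0.1, so numbers were not treated as pairs. In NCD livers, where 2 pairs could be used, both correlations were above 0.1 (0.112 and 0.144).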

Additional observations from a re-analysis of the deposited data

Results flagged for a closer look

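Within single liver groups, 2 of 33 sets of 4 to 6 libraries had a library far from the others. The cut-off is set for about 1 in 20 with continuous values, a rate that does not apply to low rounded values. Cry1 was at 0 in HFD KO replicate 6, against 1 (deposited) in the other KO livers. Npas2 was at 1.05 (scaled, deposited 1) in NCD Ctrl replicate 4 and at 0 in the other NCD Ctrl livers. Both are steps of 1 in rounded values.

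The KO effect on HFD minus that on NCD differed for Per1 (−1.72, adjusted p = 0.00939) and Ciart (−1.85, adjusted p = 0.00754), by the difference of the limma estimates. The response to Dox differed between shLinc and shCtrl for 5 members when set against no Dox: Arntl (−1.04), Clock (−1.08), Per2 (−1.40), Cry1 (−0.25) and Cry2 (−0.78). Set against the restored state it differed for Arntl (−0.82), Clock (−0.76), Per1 (0.41) and Per2 (−0.80).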

How the results depend on the processing

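With no rescaling between libraries, the count of members called was 3 for Dox against no Dox in shLinc (5 as reported), 3 for restored against Dox in shLinc (5), 2 for restored against Dox in shCtrl (4) and 2 for shLinc against shCtrl in the restored state (4), and Cry1 in restored against Dox in shLinc was 0.055 (limma adjusted p = 0.423), of opposite sign to the −0.11 reported. Leaving out 1 library gave 0 to 3 calls in NCD livers (2 as reported), 2 to 4 for restored against Dox in shCtrl and 1 to 2 for shZC3H11A against shCtrl (3). Replicate numbers were shared between groups, but only in NCD livers, where 2 pairs could be used, did every pair correlate above 0.1 (0.112 and 0.144). With the replicate block, which kept only those 2 pairs of libraries, 0 members were called in NCD livers. There Per1 was at 1.99 (limma adjusted p = 0.0719) and Ciart at 1.46 (limma adjusted p = 0.167). Both estimates were above those reported (1.49 and 1.29). Fewer libraries and pairing cannot be told apart in this loss of calls. In the other comparisons 0 to 5 members were called, within 1.5 times of the counts reported. Over all alternatives 234 counts stayed within 1.5 times and 14 did not, and of single members' results 1397 kept direction and side of the threshold, 64 lost the call, 13 gained it and 1 reversed. The cause of these changes was not tested. Rounding limits what can be seen of Npas2 in all rounded tables, of Arntl and Cry1 in liver, and of Per3, Ciart and Clock in the inducible lines.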
